A study of Homo sapiens with 9 samples.

Results

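The 8 genes followed here were the laminin chain genes LAMA3, LAMA4, LAMA5, LAMB1, LAMB3 and LAMC1, and ITGA6 and ITGB4, which encode the subunits of integrin α6β4. They were taken by symbol from the deposited expression table, where each of the 8 had 1 row, out of 30580 genes tested. The 9 arrays fall into 3 groups of 3, all from HCC4006, an established EGFR-mutant lung adenocarcinoma line. The inhibitor group is labelled as gefitinib resistant and received SB431542, a blocker of the type I TGFβ receptor kinase, in combination with the EGFR kinase inhibitor gefitinib (6 months); whether SB431542 was present from the start is not stated. The resistant group was exposed to rising gefitinib concentrations for 6 months, and the parental group was not selected. No group received SB431542 without gefitinib, and the labels name no untreated cells kept for 6 months. Against parental cells, compound, selection and culture time thus cannot be told apart. Resistant and inhibitor cells share gefitinib and the 6 months. Between them, a direct effect of SB431542 and selection under it cannot be told apart. The labels do not say whether the arrays of a group came from separate cultures, so each p-value rests on the spread among arrays alone, and that spread may be technical.

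Laminins are cross-shaped trimers of an α, a β and a γ chain that form the sheet of the basement membrane next to cells. In epithelia including that of the lung, the trimer that holds the chains encoded by LAMA3 and LAMB3 is the main ligand of integrin α6β4, and together they anchor cells at hemidesmosomes, where the β4 tail binds plectin and through it keratin filaments. The α5 chain joins β1 and γ1 in the laminin found under most mature epithelia, whereas the α4 chain, also paired with β1 and γ1, is typical of blood vessels and mesenchyme.

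The deposited intensities were on one linear scale with array medians of 91.1 to 91.3. Background was taken as 92.6, the level below which 95% of intensities of 374 olfactory receptor genes lay, and the fold change of a gene near that level is understated. The 5 genes of an epithelial check (KRT8, KRT18, KRT19, EPCAM, CDH1) were above background on average in all groups, and their summed level was 17149 to 21611 on inhibitor arrays, 6268 to 6474 on resistant arrays and 13037 to 14713 on parental arrays. All 5 were called higher in inhibitor against resistant cells, against 8.71% of all genes. In resistant against parental cells 2 were called higher and 3 lower, against 10.3% and 10.2% of all genes. The part of this epithelial shift in the results below was not tested. The summed level of 5 leukocyte markers was 603 to 688 on inhibitor arrays, 649 to 664 on resistant arrays and 1010.0 to 1097 on parental arrays, where CD14 averaged 536; PTPRC and CD3E had group means within background, while LYZ (104 to 110) and ITGB2 (199 to 229) were above it in all groups. The summed level of 6 endothelial markers was 541 to 561, 509 to 519 and 532 to 545 in the same groups, and no mean of these genes exceeded 108. Inhibitor replicate 2 stood apart: 54 genes differed by 2-fold or more from their mean on both other inhibitor arrays, compared with 3 each for replicates 1 and 3 and at most 2 for any parental or resistant array. LAMB1 and ITGB4 were among the 54. Changes without this array are given for LAMB1, LAMB3, ITGA6 and ITGB4, but only for some genes of the further lists.

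Promoter windows are shown for the chain genes whose levels moved together or apart with the inhibitor, LAMA3 and LAMB3 against LAMA4, and for ITGA6. Each runs from 250 bases before to 50 bases after an annotated start in RefSeq (GRCh38.p14). Capitals mark TGANTCA, the AP-1 motif, which reads the same on both strands, and the E-box CACCTG on either strand (CAGGTG on the other), the kind bound by ZEB and SNAI repressors. LAMA3 is given on chromosome 18, chr18:23872770-23873069, plus strand, at an internal start of the gene; LAMB3 on chr1:209651325-209651624, minus strand, the third of its 3 windows; ITGA6 on chr2:172427086-172427385, plus strand, the first of 2; and LAMA4 on chr6:112254518-112254817, minus strand.
LAMA3: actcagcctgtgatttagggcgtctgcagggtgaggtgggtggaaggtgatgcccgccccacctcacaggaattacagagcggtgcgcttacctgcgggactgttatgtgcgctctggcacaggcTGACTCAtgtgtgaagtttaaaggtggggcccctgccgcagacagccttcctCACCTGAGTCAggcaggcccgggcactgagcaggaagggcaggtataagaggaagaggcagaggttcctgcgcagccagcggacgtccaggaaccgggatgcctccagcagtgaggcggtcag
LAMB3: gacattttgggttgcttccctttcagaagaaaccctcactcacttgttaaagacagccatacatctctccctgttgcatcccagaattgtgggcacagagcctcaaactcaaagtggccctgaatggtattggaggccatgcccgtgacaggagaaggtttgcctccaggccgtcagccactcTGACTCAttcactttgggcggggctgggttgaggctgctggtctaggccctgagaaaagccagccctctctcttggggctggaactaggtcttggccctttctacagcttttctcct
ITGA6: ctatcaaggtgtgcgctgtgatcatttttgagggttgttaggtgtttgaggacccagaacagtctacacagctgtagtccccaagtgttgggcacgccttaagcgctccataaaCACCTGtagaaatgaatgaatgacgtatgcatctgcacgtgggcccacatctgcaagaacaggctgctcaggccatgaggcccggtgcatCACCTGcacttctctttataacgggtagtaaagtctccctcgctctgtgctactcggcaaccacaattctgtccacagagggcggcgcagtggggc
LAMA4: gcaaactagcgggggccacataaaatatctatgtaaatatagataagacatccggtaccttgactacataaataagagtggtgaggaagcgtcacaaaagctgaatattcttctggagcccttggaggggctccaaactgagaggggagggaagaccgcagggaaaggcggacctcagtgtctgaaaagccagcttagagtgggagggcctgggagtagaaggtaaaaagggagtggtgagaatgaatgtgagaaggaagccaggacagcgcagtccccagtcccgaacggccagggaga

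The LAMA3 window held TGACTCA beginning at position -125 and TGAGTCA at -69, counted from the start, and its CACCTG at -73 overlaps the second of these by 2 letters. The LAMB3 window held 1 TGACTCA at -67, the ITGA6 window held 2 CACCTG at -136 and -46, and the LAMA4 window held neither. These windows were chosen for holding a motif, or, for LAMA4, as its single window; of the other LAMB3 windows the first held 1 CAGGTG at -218 and no TGANTCA and the second held neither, and the other ITGA6 window held neither. Windows were found for 7 of the 8 genes, 10 in all; 2 of the 10 held TGANTCA and 4 held the E-box. Over all 35116 windows the shares were 7.71% and 20.6%. TGANTCA was held at least 2 times by 0.515% of them and the E-box by 3.49%. A match is a run of letters, not a measured binding site, and the start used in HCC4006 was not measured.

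In 6 of the 8 genes, all but LAMA4 and LAMC1, the highest mean was that of inhibitor cells. Against parental cells, 8 of 8 were called higher in inhibitor cells (limma, adjusted p under 0.05), where 7.15% of all genes were called higher and 7.82% lower, and 6 of the 8 were at least 2-fold higher, against 0.595% of all genes. Against resistant cells, 6 of 8 were called higher in inhibitor cells and 1, LAMA4, lower, against 8.71% and 8.85% of all genes; 3 were at least 2-fold higher, against 1.06%. In resistant against parental cells, 5 of 8 were called higher and none lower, against 10.3% and 10.2% of all genes; only LAMA4 was at least 2-fold higher, against 1.04% of all genes. All 3 groups are shared between these comparisons, so the counts are not independent of each other. The shares of all genes include many near background, since 48.7% of genes had a mean above it. With dim genes left out, 14900 genes were tested. Of these, 2427 were called higher and 2549 lower in inhibitor against parental cells, and 2827 and 2921 in inhibitor against resistant cells. In resistant against parental cells the counts were 3337 and 3174. Each is a larger share than that of all genes given above. All 8 genes had means above background in every group, so the larger shares are the closer comparison for them.

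The median log2 change of the 8 genes was 1.19 for inhibitor against parental, 0.78 for inhibitor against resistant and 0.51 for resistant against parental cells; over all genes it was 0.0045, -0.0008 and 0.0045. The groups did not overlap, with the first one higher, for 8, 6 and 6 of the 8 genes in those comparisons, against 14%, 14.8% and 17.9% of all genes. Without inhibitor replicate 2, 7 of the 8 passed as higher in resistant against parental cells and 1 as lower, against 13% and 12.1% of all genes. The values of that array enter this comparison through the common variance alone. Without resistant replicate 3, 4 of the 8 were called higher, and over all genes 2608 were, against 3143 with all arrays. Leaving out inhibitor replicate 2 kept the called counts for inhibitor cells, 6 higher and 1 lower against resistant cells and 8 higher against parental cells. However, 5 in place of 6 genes were then at least 2-fold higher than in parental cells, since ITGA6 was 1.89-fold higher. Since these are bulk samples, a change in the number of cells of one kind and in the RNA per cell cannot be told apart.

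**Figure D1:**
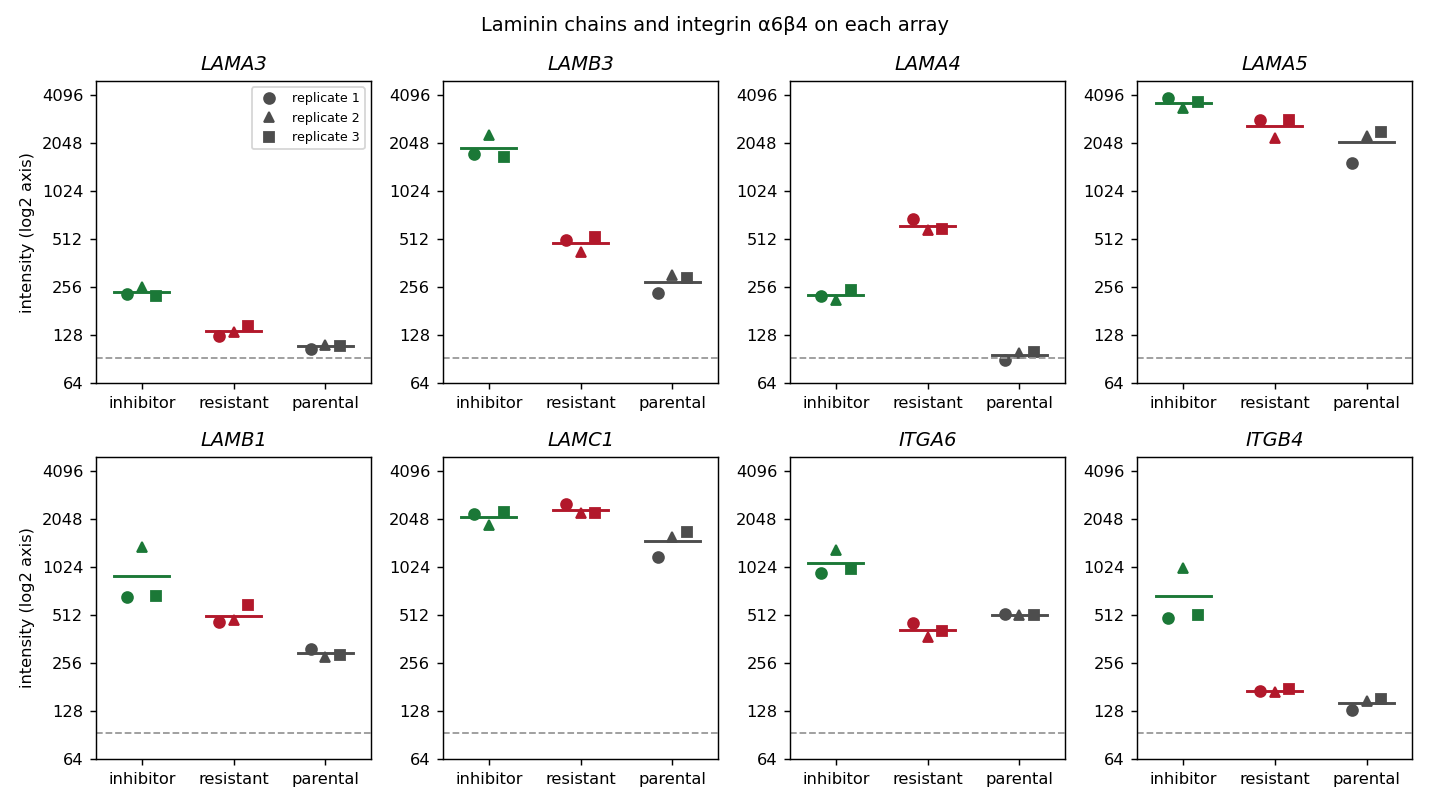
Intensity (log2 axis) of the 8 genes on each of the 9 arrays, by group; symbols are replicates, horizontal lines are group means (n = 3) and the dashed line is the background level of 92.6. LAMA4 is highest in resistant cells, LAMC1 averages 2102 in inhibitor and 2327 in resistant cells, and the other 6 genes have their highest mean in inhibitor cells, with replicate 2 standing above the others for LAMB1 and ITGB4.

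LAMB3, which encodes the β3 chain of the epithelial anchoring laminin, was higher with the inhibitor than in both other groups. Its intensity was 1758, 2302.5 (replicate 2) and 1660 in inhibitor cells, against 504, 425 and 528 in resistant and 236, 303 and 294 in parental cells. The 3 groups did not overlap. Means were 1907 ± 346, 486 ± 53.8 and 277 ± 36.4 (SD, n = 3 each). LAMB3 rose by 1.96 ± 0.14 (SE) on the log2 scale in inhibitor against resistant cells (3.90-fold, adjusted p = 4.68e-09) and by 2.78 ± 0.14 against parental cells (6.85-fold, adjusted p = 4.31e-11). Without inhibitor replicate 2 these rises were 1.82 and 2.63. Only 0.0098% of genes had a larger rise against parental cells. It was already higher in resistant than in parental cells, by 0.81 ± 0.14 (adjusted p = 0.00023).

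LAMA3 encodes the α3 chain of the same trimer. Its intensity was 231, 258 and 227 in inhibitor cells, 126, 134 and 147 in resistant cells and 105, 112 and 110 in parental cells. The groups followed the same order as for LAMB3 and again did not overlap, but the resistant and parental values lay close to background. LAMA3 rose by 0.81 ± 0.08 in inhibitor against resistant cells (1.76-fold, adjusted p = 1.43e-07), by 1.13 ± 0.08 against parental cells (2.19-fold, adjusted p = 1.64e-09), and by 0.32 ± 0.08 in resistant against parental cells (adjusted p = 0.00386). With the olfactory median of 85.2 subtracted and values floored at 16, these became 3.06-fold, 6.53-fold and 2.14-fold. The table does not say which LAMA3 transcripts its row measured.

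Both subunit genes of the receptor were higher with the inhibitor. ITGB4, whose long cytoplasmic tail links to plectin, had 486, 1002 (replicate 2) and 512 in inhibitor cells, 169.7, 169 and 176 in resistant cells and 130, 147 and 152 in parental cells. The inhibitor arrays did not overlap either other group, and replicate 2 was 2.01-fold above the other inhibitor arrays. ITGB4 rose by 1.87 ± 0.18 in inhibitor against resistant cells (3.67-fold, adjusted p = 2.51e-07), and by 1.54 without that replicate (2.91-fold, adjusted p = 1.65e-12). Against parental cells it rose by 2.14 ± 0.18 (adjusted p = 4.98e-08), or 1.80 without that replicate. With background subtracted as above, these rises became 6.25-fold and 9.45-fold. In resistant against parental cells it differed by 0.26 ± 0.18 without passing (adjusted p = 0.393), and passed without inhibitor replicate 2 (adjusted p = 0.00956).

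ITGA6, which encodes the α6 subunit and also pairs with β1, had 938, 1309 (replicate 2) and 995 in inhibitor cells, 453, 369 and 406 in resistant cells and 519, 509 and 508 in parental cells. It was the 1 gene of the 8 whose resistant arrays all lay below the parental ones. ITGA6 rose by 1.39 ± 0.13 in inhibitor against resistant cells (2.62-fold, adjusted p = 1.7e-07) and by 1.06 ± 0.13 against parental cells (adjusted p = 7.01e-06). Without inhibitor replicate 2 these were 1.24 and 0.92. The difference of -0.33 ± 0.13 in resistant against parental cells did not pass (adjusted p = 0.0912), but passed without inhibitor replicate 2 (adjusted p = 0.0104). ITGB1, which encodes the other partner of α6, averaged 8003 ± 366 in inhibitor, 7247 ± 124 in resistant and 7307 ± 148 in parental cells; it passed in no comparison (adjusted p = 0.0889 to 0.933), at levels above the 99th percentile of all values (5549).

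**Figure D2:**
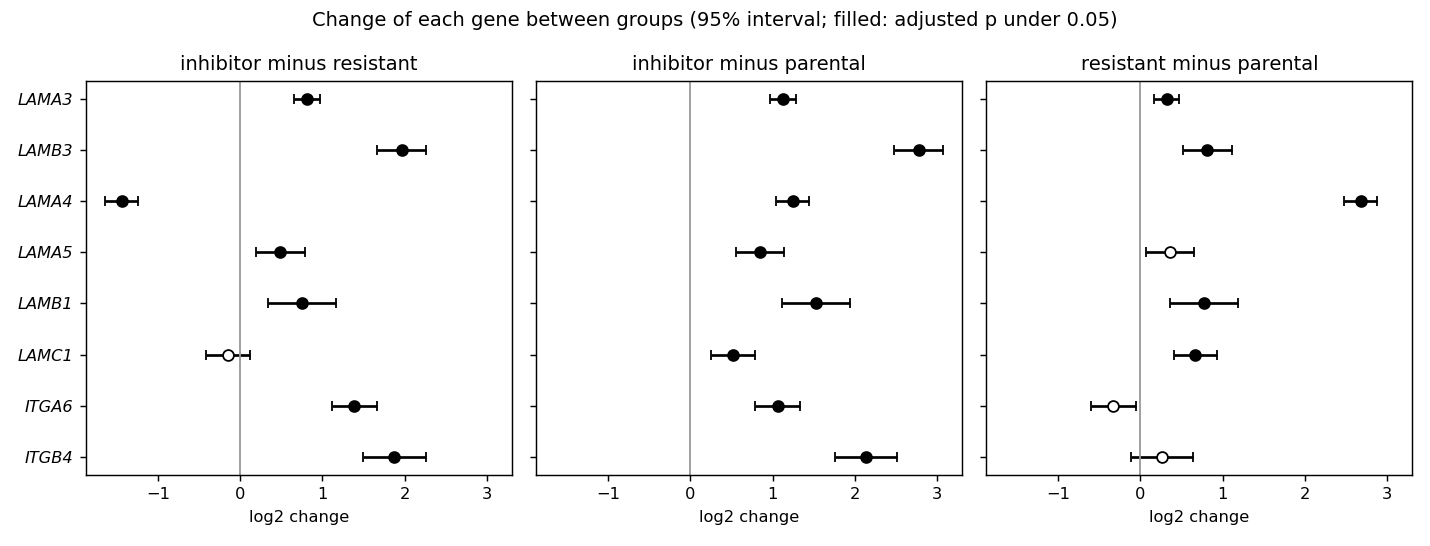
Log2 change of the 8 genes in each comparison, with 95% intervals from limma; filled points had an adjusted p under 0.05. LAMA4 is the 1 gene called lower in inhibitor against resistant cells (-1.44) and has the largest rise in resistant against parental cells (2.68).

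LAMA4, which encodes the α4 chain of vessel and mesenchymal laminins, was the 1 gene of the 8 called lower in inhibitor against resistant cells. LAMC1 had the same order of group means (2327 in resistant, 2102 in inhibitor and 1477 in parental cells). The LAMA4 intensity was 226, 213 and 246 in inhibitor cells, 684, 579 and 592 in resistant cells and 89.5, 98.7 and 101 in parental cells. The 3 groups did not overlap, and 1 parental array lay below and 2 just above background. LAMA4 rose by 2.68 ± 0.10 in resistant against parental cells (6.41-fold, adjusted p = 9.81e-14), a rise exceeded by 0.0687% of genes. In inhibitor cells it fell by 1.44 ± 0.10 against resistant cells (adjusted p = 1.44e-09) and stayed higher than in parental cells by 1.24 ± 0.10 (2.37-fold, adjusted p = 1.3e-08). With background subtracted as above, the resistant against parental change became 33.2-fold and the inhibitor against parental change 8.90-fold; both depend on the floor for the parental arrays. Of the 6 endothelial markers none exceeded a group mean of 108. The brightest, ESAM, averaged 108 in inhibitor cells, and its 82.5 in resistant and 92.5 in parental cells lay within background. Any link of these markers to LAMA4 was not tested.

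LAMA5, which encodes the α5 chain of the general epithelial laminin, had 3888, 3379 and 3719 in inhibitor cells, 2849, 2185 and 2839 in resistant cells and 1538 (replicate 1), 2264 and 2397 in parental cells. Inhibitor arrays lay above all others, and the resistant and parental ranges overlapped. LAMA5 rose by 0.85 ± 0.14 in inhibitor against parental cells (adjusted p = 0.000203) and by 0.49 ± 0.14 against resistant cells (adjusted p = 0.0188). That call against resistant cells was lost without resistant replicate 2 (adjusted p = 0.135) or inhibitor replicate 1 (adjusted p = 0.0685), without the intensity trend (adjusted p = 0.0788) and with background subtracted (adjusted p = 0.25), and its adjusted p ran between 0.00268 and 0.25 across 18 alternatives. In resistant against parental cells the difference was 0.36 ± 0.14 (adjusted p = 0.0814); it passed without parental replicate 3, resistant replicate 2 or inhibitor replicate 2 (adjusted p = 0.0309 to 0.0344), and was 0.16 without parental replicate 1.

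LAMB1 and LAMC1 encode the β1 and γ1 chains that partner both α4 and α5. LAMB1 had 661, 1352 (replicate 2) and 672 in inhibitor cells, 459, 473 and 585 in resistant cells and 312, 279.5 and 288 in parental cells. The groups did not overlap, and replicate 2 was 2.03-fold above the other inhibitor arrays. LAMB1 rose by 1.53 ± 0.20 in inhibitor against parental cells (adjusted p = 1.34e-05; 1.19 without that replicate), by 0.75 ± 0.20 in inhibitor against resistant cells (adjusted p = 0.011) and by 0.78 ± 0.20 in resistant against parental cells (adjusted p = 0.00651). Without inhibitor replicate 2 the second of these was 0.41 (1.33-fold, adjusted p = 0.00962), and it was lost without resistant replicate 1 or 2 (adjusted p = 0.0651 and 0.0562), without the intensity trend (adjusted p = 0.0664) and with background subtracted (adjusted p = 0.205; across 18 alternatives, between 0.00341 and 0.205). The third was lost without resistant replicate 3 (adjusted p = 0.05005), without the trend (adjusted p = 0.05008) and with background subtracted (adjusted p = 0.113; across 18 alternatives, between 9.92e-07 and 0.113).

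LAMC1 had 2178, 1862 and 2266 in inhibitor cells, 2538, 2224 and 2219 in resistant cells and 1174 (replicate 1), 1578 and 1680 in parental cells. Inhibitor and resistant arrays overlapped, and both lay above the parental ones. LAMC1 rose by 0.67 ± 0.13 in resistant against parental cells (1.59-fold, adjusted p = 0.000514) and by 0.52 ± 0.13 in inhibitor against parental cells (1.43-fold, adjusted p = 0.00679); the second call was lost with background subtracted (adjusted p = 0.112). Between inhibitor and resistant cells it differed by -0.15 with a 95% interval of -0.41 to 0.12 (adjusted p = 0.531), an interval that excludes neither a modest fall nor a small rise.

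**Figure D3:**
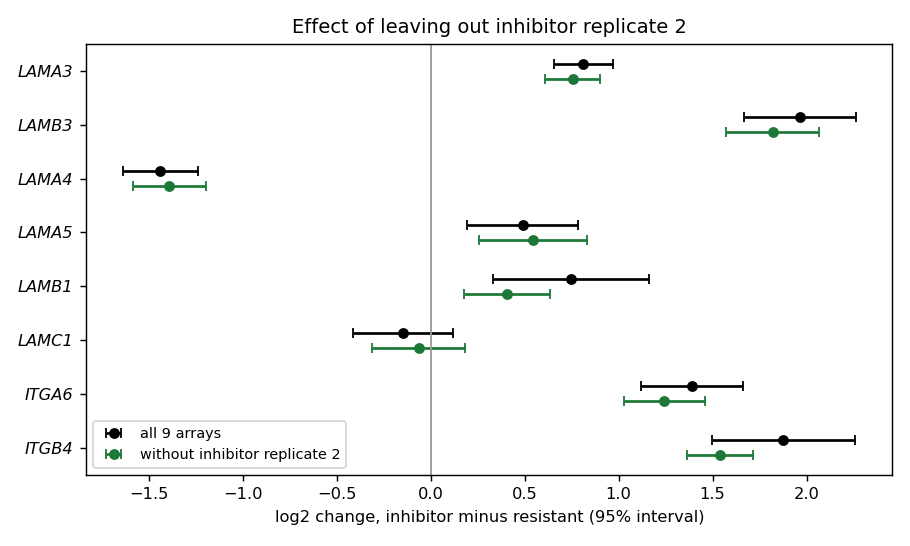
Log2 change of the 8 genes in inhibitor against resistant cells with 95% intervals, from all 9 arrays (black) and without inhibitor replicate 2 (green). LAMB1 stands at 0.41 without the array against 0.75 with it, ITGB4 at 1.54 against 1.87, and the interval of LAMC1 spans 0 in both.

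Ratios of 2 genes on the same array show whether chains moved unequally; only their shifts between groups are given, since rows of different genes have no common scale. The LAMA4 over LAMA3 ratio fell by 2.25 on the log2 scale in inhibitor against resistant cells, and the shift was -3.51 with background subtracted. Its SD over arrays was 0.20 in inhibitor and 0.22 in resistant cells. Against parental cells, where both genes lay near background, this ratio is not given. The LAMB3 over LAMB1 ratio was higher by 1.22 in inhibitor against resistant cells, and differed by 0.03 between resistant and parental cells. The ITGB4 over ITGA6 ratio was already higher by 0.59 in resistant against parental cells (1.00 with background subtracted), with SDs of 0.15 and 0.14. It was higher by a further 0.49 in inhibitor against resistant cells, where the SD over inhibitor arrays was 0.33. Without inhibitor replicate 2 this shift was 0.30, and with background subtracted 1.04; the LAMB3 over LAMB1 shift was 1.41 and 1.32 in these settings, both chosen after the data were seen. In these 3 inhibitor against resistant shifts the groups did not overlap, and each reached the smallest p that an exact two-sided permutation test of 3 against 3 arrays allows (p = 0.1; adjusted over 9 shifts, 0.129), which cannot pass 0.05.

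Beyond the 8 genes, lists of laminin-related genes were described, chosen with earlier results of these data known. The same shares of all genes apply beside every list. In inhibitor against resistant cells 8.71% were called higher and 8.85% lower. In resistant against parental cells these were 10.3% and 10.2%, and in inhibitor against parental cells 7.15% and 7.82%. The medians over all genes were -0.0008, 0.0045 and 0.0045 in that order. Of 5 further laminin chains, LAMA1 was called lower in inhibitor against resistant cells and none higher (list median -0.02, all genes -0.0008), LAMA1 higher and LAMB2 lower in resistant against parental cells (median 0.0024, all genes 0.0045), and LAMB2 lower and none higher in inhibitor against parental cells (median -0.02, all genes 0.0045). LAMA1 encodes the α1 chain of embryonic basement membranes. It averaged 91.9 ± 1.16 in inhibitor, 120.5 ± 5.11 in resistant and 93.4 ± 0.712 in parental cells, so like LAMA4 it was brightest in resistant cells, but near background. LAMB2 differed by -0.25 in resistant against parental cells, and leaving out any of parental 2, parental 3, resistant 1 or resistant 3 took it past the threshold (adjusted p = 0.0839 to 0.16). LAMA2, LAMB4 and LAMC3 were within background in all groups.

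Among 7 hemidesmosome partners, COL17A1 and DST were called higher in inhibitor against resistant cells and ERBIN lower (list median 0.04). COL17A1, which encodes the transmembrane collagen XVII, had 987, 531 (replicate 2) and 1144 in inhibitor cells, 214, 208 and 193 in resistant cells and 474, 607 and 597 in parental cells. Every inhibitor array lay above the resistant ones, and replicate 2 was at 0.50 of the level of the others, opposite to its LAMB1 and ITGB4 values. COL17A1 rose by 2.04 ± 0.20 in inhibitor against resistant cells (4.11-fold, adjusted p = 2.38e-07) and fell by 1.44 ± 0.20 in resistant against parental cells (adjusted p = 1.44e-05). Its difference of 0.60 in inhibitor against parental cells (adjusted p = 0.0453) was lost without any 1 array except inhibitor replicate 2 (adjusted p = 0.0672 to 0.231).

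DST, the gene of the plaque protein BPAG1, averaged 141 ± 13.1 in inhibitor, 96.3 ± 1.24 in resistant and 115 ± 5.59 in parental cells. It rose by 0.54 ± 0.06 in inhibitor against resistant cells (adjusted p = 3.72e-06) and fell by 0.26 ± 0.06 in resistant against parental cells (adjusted p = 0.00637). No partner was called higher in resistant cells (list median -0.04); PLEC, the plectin gene, was without inhibitor replicate 2 (0.18, adjusted p = 0.00968). PLEC averaged 140 ± 24.2 in inhibitor, 117 ± 2.35 in resistant and 104 ± 1.55 in parental cells, and was called in inhibitor against parental cells only (0.42, adjusted p = 0.00131). There COL17A1, PLEC and DST were called higher and CD151 lower (-0.23; list median 0.02); CD151 did not pass when parental 2 or 3, or inhibitor 2 or 3, was left out (adjusted p = 0.0503 to 0.133). The ERBIN difference of -0.17 did not pass when resistant 1 or 2, or inhibitor 1 or 3, was left out (adjusted p = 0.0544 to 0.138). PLEC was called higher in inhibitor against resistant cells without inhibitor replicate 1 or 3 (adjusted p = 0.0124 and 0.0257). The basal keratin genes KRT5 and KRT14 were within background in all groups.

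Of 10 other laminin receptors, ITGA2 and SDC1 were called higher and ITGA1 lower in inhibitor against resistant cells (list median 0.04). ITGA2, the α2 subunit of a collagen and laminin receptor, rose by 2.49 ± 0.12 (adjusted p = 1.38e-11), to 2336 ± 364 in inhibitor cells, against 414 ± 6.97 in resistant and 1027 ± 51.1 in parental cells. ITGA3, whose α3 subunit with β1 also binds the epithelial anchoring laminin, averaged 1543 ± 271 in inhibitor, 1482 ± 129 in resistant and 782 ± 200 in parental cells. ITGA3 rose by 0.95 ± 0.17 in resistant and by 1.00 ± 0.17 in inhibitor against parental cells (adjusted p = 0.000219 for each), and differed by 0.05 between inhibitor and resistant cells (adjusted p = 0.909). In resistant against parental cells 3 of the 10 were called higher (ITGA3, RPSA, ITGA1), against 10.3% of all genes. The 2 called lower, against 10.2%, were ITGA2 (-1.31) and SDC1 (-1.06), and the list median was -0.0002. Without inhibitor replicate 2 SDC4 was also called higher (0.26, adjusted p = 0.043), which makes 4, where 13% of all genes were. RPSA has many pseudogene copies, so its signal is uncertain. It did not pass when parental 1, resistant 1 or resistant 2 was left out (adjusted p = 0.0582 to 0.155). In inhibitor against parental cells ITGA2 and ITGA3 were called higher and SDC1 lower (-0.69; list median 0.10). The SDC1 rise of 0.37 with the inhibitor (adjusted p = 0.0498) was lost without any 1 array except parental replicate 1 and inhibitor replicate 2 (adjusted p = 0.0552 to 0.208), and without inhibitor replicate 1 RPSA was called lower (adjusted p = 0.0387).

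Other basement membrane components split. Of 16, 7 were called higher and 4 lower in inhibitor against resistant cells (list median 0.16), against 8.71% and 8.85% of all genes. NTN4, a netrin that binds laminin γ chains, rose by 1.53 ± 0.13 (adjusted p = 3.87e-08) and the collagen IV gene COL4A1 by 1.25 ± 0.11 (adjusted p = 1.07e-07). TINAGL1 rose by 0.97 ± 0.15 (adjusted p = 9.61e-05), with inhibitor replicate 2 at 1.82-fold the level of the other inhibitor arrays. The 4 that fell were NID2, which encodes a linker between laminin and collagen IV (-0.91), COL18A1 (-0.83), FBLN1 (-0.66) and SPARC (-0.35). The SPARC call was lost without any 1 array except inhibitor replicate 2 (adjusted p = 0.0523 to 0.225).

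NID2 averaged 85.8 ± 2.03 in inhibitor, 162 ± 22.1 in resistant and 84.9 ± 1.86 in parental cells, and was thus above background in resistant cells only. In resistant against parental cells 5 of the 16 were called higher, against 10.3% of all genes: SPARC (1.69), COL4A5 (1.55), COL18A1 (1.11), NID2 (0.92) and NID1 (0.14). The 4 called lower, against 10.2%, were FBLN1 (-0.67), NTN4 (-0.46), COL4A4 (-0.44) and COL4A3 (-0.18), and the list median was -0.01. NID1 did not pass when any parental array, resistant 2 or resistant 3 was left out (adjusted p = 0.0531 to 0.214), nor NTN4 when parental 2, parental 3 or resistant 1 was (adjusted p = 0.0556 to 0.0647). COL4A1 was also called lower there without parental replicate 1 (-0.41, adjusted p = 0.00761) or inhibitor replicate 2 (-0.28, adjusted p = 0.0445). In inhibitor against parental cells 8 were called higher, against 7.15% of all genes. Among them were COL4A5 at 2.01, SPARC at 1.34, NTN4 at 1.07 and COL4A1 at 0.97. FBLN1 alone was called lower, by 1.34, against 7.82% of all genes (list median 0.32). Without parental replicate 1, 6 were higher there and 2 lower, COL4A3 being the second. The COL4A2 call (0.51, adjusted p = 0.0219) was lost without parental 1, parental 3 or inhibitor 2 (adjusted p = 0.0632 to 0.0871). AGRN, which encodes the laminin-binding proteoglycan agrin, was 2.04-fold higher in inhibitor replicate 2 than in the other inhibitor arrays, and its call against parental cells (0.63, adjusted p = 0.0346) was 0.29 without that array (adjusted p = 0.0754). It also did not pass when parental 1, parental 3 or any resistant array was left out (adjusted p = 0.053 to 0.166).

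Among 7 genes of proteases that cleave laminin chains, BMP1 and PLAT were called higher in inhibitor against resistant cells and none lower (list median 0.03). BMP1, the procollagen C-proteinase that trims laminin chains, rose by 1.10 ± 0.14 (adjusted p = 7.1e-06). It averaged 559 ± 145 in inhibitor cells, against 256 ± 25.7 in resistant and 201 ± 7.99 in parental cells. Its inhibitor replicate 2 was 1.53-fold above the other inhibitor arrays (725 against 491 and 460). PLAT, tissue plasminogen activator, averaged 554 ± 62.1 in inhibitor, 154 ± 10.4 in resistant and 864 ± 86.5 in parental cells: it fell by 2.49 ± 0.12 in resistant against parental cells (adjusted p = 5.56e-12) and rose by 1.85 ± 0.12 in inhibitor against resistant cells (adjusted p = 8.18e-10). TLL1 was also called higher in resistant against parental cells (0.15, near background; list median 0.10), which did not pass when parental 1, parental 3 or resistant 3 was left out (adjusted p = 0.121 to 0.247). MMP2 was called higher there without inhibitor replicate 1 or 2, parental replicate 3 or resistant replicate 3 (adjusted p = 0.0286 to 0.0446), and BMP1 without inhibitor replicate 2 (adjusted p = 0.00288). In inhibitor against parental cells BMP1 (1.45) and MMP2 (0.22) were called higher and PLAT lower (-0.64; list median 0.06).

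**Figure D4:**
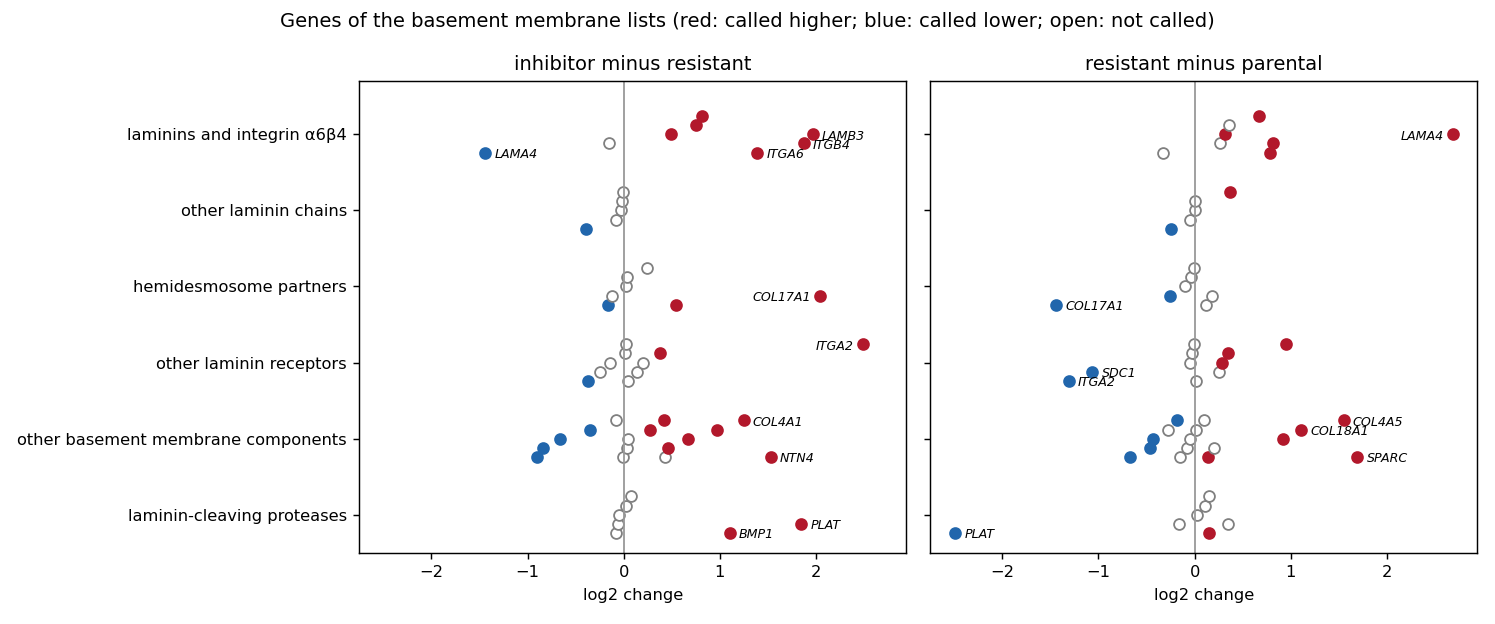
Log2 changes of the 8 genes and of the 5 laminin-related lists in inhibitor against resistant cells (left) and resistant against parental cells (right), 1 point per gene; called genes that changed at least 2-fold are named. COL17A1 and ITGA2 stand at 2.04 and 2.49 with the inhibitor, and LAMA4 and PLAT lie on opposite sides of 0 in the right panel.

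For each of the 6 genes whose highest and lowest group means differed by at least 1 on the log2 scale, the genes with the most similar profile were taken by the mean absolute difference of centred log2 values over the 9 arrays, among 16261 genes brighter than background in at least 1 group. Since there are only 3 group levels, many genes share a shape, and the likeness is a description of these arrays. For LAMA4 they were BCAT1, PPP2R2B and the cytokine gene IL11, at 0.09, 0.10 and 0.11. IL11 averaged 231 in inhibitor, 673 in resistant and 105 in parental cells. For LAMA3 they were KYNU, ENDOD1 and the tissue factor gene F3 (0.08 to 0.085), and for ITGA6 the metalloproteinase inhibitor gene TIMP4, ANOS1 and SFN (0.08 to 0.094).

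For LAMB1 the nearest rows were KRT8P45, LOC647954 and the heparan sulfatase gene SULF2 (0.11 to 0.13); KRT8P45 is a keratin 8 pseudogene whose signal may include KRT8. LAMB3 and ITGB4 had no near match, with nearest distances of 0.20 (LOC100134294, MLLT11, EPSTI1) and 0.21 (MANCR, SULT2B1, COXFA4L3) on the log2 scale. Among the 8 genes themselves, the closest to LAMA3 was LAMA5 (0.22), and the closest to LAMB1 and to ITGA6 was LAMA3 (0.27 each). LAMB3 and ITGB4 were each other's closest, at a larger distance of 0.30, and LAMA4 was 0.73 from its closest, LAMC1.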

How the data were processed

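Biotin-labelled cRNA from total RNA of 9 HCC4006 samples was hybridised to Illumina expression arrays, per the labels' protocols. The deposited table holds linear intensities, 1 per gene symbol and array, from 72.7 to 11567. The arrays' sorted values agreed to within 0.0178 (log2), so the deposited intensities were already quantile-normalized; background was not subtracted. How probes were merged, and with which software, is not stated in the labels. Precision is limited by having 3 arrays per group.

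Of 34687 rows, 3270 UniGene and 92 spike-in rows were left out. Symbols were updated with RefSeq names (GRCh38.p14: 17757 rows by symbol, 2669 by gene number, 3303 by older symbol, 7596 kept). The row with the highest mean was used for 728 genes with several, which left 30580 genes. The log2 intensities of all 9 arrays went into 1 model with a mean for each group and an intensity trend (limma 3.58.1, R 4.3.3), with Benjamini-Hochberg adjustment over all genes of a comparison; calls are adjusted p-values under 0.05. The fit was tested on simulated data. Adjusted p-values are from limma unless another test is named. Named genes are the 8 genes, up to 5 called genes with the largest change per list and comparison, those that a count of 5 or fewer turns on, and 3 genes of most similar profile per gene. Some list genes are not reported here. The genes and lists were chosen with earlier results of these data known. Replicate numbers did not pair the arrays (correlations of deviations from group means -0.198 to 0.0293), so no block was used. Alternatives were leaving out each array, a replicate block, the variance prior, a filter on dim genes, cyclic loess, background subtraction, row merging, UniGene rows, 2-group fits and array weights. Figures were drawn with matplotlib 3.10.9.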

Additional observations from a re-analysis of the deposited data

How the results depend on the processing

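Over 18 alternatives for each of the 24 gene changes, 412 of 432 values kept their direction and their side of the threshold, 12 lost the call and 8 gained it; none reversed. The lost calls concerned LAMA5 and LAMB1 in inhibitor against resistant cells, LAMB1 in resistant against parental cells, and LAMC1 in inhibitor against parental cells (adjusted p = 0.112 with background subtracted). The number of the 8 genes called ran from 4 to 8 in resistant against parental cells when 1 array was left out (8 without inhibitor replicate 2), from 5 to 7 in inhibitor against resistant cells and stayed at 8 in inhibitor against parental cells. With background subtracted, 4, 5 and 7 of the 8 were called in these comparisons, and without the intensity trend 4, 5 and 8. Over all 30580 genes, those called higher also fell with background subtracted, from 3143, 2662 and 2187 to 2178, 1804 and 1420. Those called lower fell from 3133, 2705 and 2392 to 2339, 1762 and 1682. Without the trend, 3098, 2591 and 2181 of all genes were higher and 3062, 2707 and 2457 lower. The cause was not tested. With the replicate block, 5, 7 and 8 of the 8 genes were called, and the block changed no call among them. Over the 45 genes of the 5 lists, 14 to 25 were called in resistant against parental cells (20 in the fit reported). The counts were 16 to 21 (20) in inhibitor against resistant cells and 14 to 20 (20) in inhibitor against parental cells. Background subtraction gave the lowest count in each comparison. The 25 came without inhibitor replicate 2, where 13% of all genes were called higher and 12.1% lower. Signal over background limits LAMA3 and LAMA4 most, whose parental means were 109 and 96.3.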
